A study of Mus musculus with 8 samples.

Results

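The genes described here encode the respiratory chain and ATP synthase of the mitochondrion, taken by name from a liver RNA sequencing table: the Nduf, Uqcr, Cox4 to Cox8, Sdha to Sdhd and Atp5 names of the nuclear genome, and the protein genes of the mitochondrial genome. The name rule found 120 genes among 30266. Of these, 13 are mitochondrially encoded, 92 are nuclear genes of subunits, tissue isoforms and complex I assembly factors, and 15 are nuclear copies and pseudogenes. Every library came from the liver of a male Mdr2-/- mouse, 8 weeks old. The control group received PBS as vehicle (4 libraries), and the other group received rFGF21, recombinant fibroblast growth factor 21, at 1.0 mg/kg for 4 h (4 libraries). Both groups carry the Mdr2 genotype, so the comparison asks how a short exposure to the hormone went with transcript levels in this genotype, with no wild-type liver beside it. Mdr2 is an older name of Abcb4, the canalicular phospholipid carrier, and mice lacking it are a standard model of cholestatic liver disease. The labels do not say that each library came from its own animal, and p-values measure only the spread between these libraries. The libraries are named here by group and column number: PBS 1, 2, 4 and 5, and rFGF21 1, 2, 3 and 5. The numbers are names and carry no order.

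The respiratory chain moves electrons from NADH and succinate through complexes I to IV to oxygen and pumps protons across the inner mitochondrial membrane, and complex V uses the proton gradient to make ATP. Complexes I, III, IV and V are assembled from proteins of both genomes, while complex II is wholly nuclear. The mitochondrial genome is transcribed as long polycistronic RNAs by its own polymerase and cut into messenger, ribosomal and transfer RNAs, and the nuclear subunit genes are transcribed one by one, many from promoters bound by NRF1, GABP and YY1. Hepatocytes are rich in mitochondria, and FGF21 is known as a hormone of fasting and of fuel use.

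The libraries held 62756328 to 73313449 reads. Liver markers dominated in all 8, with Alb at 42573 to 63437 CPM, a read count scaled to the size of its library. The extraction protocol in the labels names retina, however. Of the 5 photoreceptor markers found, Crx and Rcvrn were at 0 reads. The 5 together summed to 7.42 to 12.5 CPM in PBS and 8.17 to 11.2 CPM in rFGF21 libraries. Abcb4 was read at 337 to 424 CPM in PBS and 372 to 441 CPM in rFGF21 libraries. The sources used here do not tell which part of the gene is disrupted, so these reads check the label in neither direction. PBS 4 stood apart from the other libraries in its mitochondrial reads, so each result that rests on it is given with and without it. CPM values are scaled by TMM normalization factors, and a gene is called changed where edgeR's quasi-likelihood test gave a Benjamini-Hochberg adjusted p under 0.05 over all 18315 genes tested. By that rule 516 genes were called (2.82%), 210 higher (1.15%) and 306 lower (1.67%). In liver tissue, fewer cells of a type and less RNA per cell cannot be told apart.

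The mitochondrial genes lie close together, and some share bases, which bears on how reads are assigned to them. In the annotation (GENCODE M21, GRCm38), mt-Atp8 and mt-Atp6 share 43 bases (chrM:7927-7969), mt-Nd4l and mt-Nd4 share 7 (chrM:10167-10173), mt-Atp6 and mt-Co3 share 1, and mt-Nd5 and mt-Nd6 share 14 on opposite strands (chrM:13552-13565). No source used here tells how reads in shared bases were counted or whether strand was used, so the values of the genes that share bases are uncertain to that extent. Among these genes 2 are shown, 5′ to 3′ on the plus strand: mt-Atp8 (chrM:7766-7969, 204 bases), as the gene with the largest shared portion, its shared bases in capitals, and mt-Nd3 (chrM:9459-9806, 348 bases, of which the first 300 are shown, chrM:9459-9758), which shares no base with another protein gene and behaved unlike the other 12 in PBS 4.
mt-Atp8: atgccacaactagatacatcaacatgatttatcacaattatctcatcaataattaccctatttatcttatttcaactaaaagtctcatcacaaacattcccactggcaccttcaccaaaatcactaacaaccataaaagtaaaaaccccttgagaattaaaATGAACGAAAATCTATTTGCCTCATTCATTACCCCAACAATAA
mt-Nd3: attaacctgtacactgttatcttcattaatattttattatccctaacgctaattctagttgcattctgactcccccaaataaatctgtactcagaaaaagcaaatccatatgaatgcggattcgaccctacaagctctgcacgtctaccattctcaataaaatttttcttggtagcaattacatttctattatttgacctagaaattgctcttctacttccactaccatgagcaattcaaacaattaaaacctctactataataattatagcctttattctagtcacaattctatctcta

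Promoters of 4 nuclear members are shown from 150 bases before to 20 bases after the annotated start (RefSeq, GRCm38.p6), each in its gene's direction, with motif matches in capitals. They are Ndufv3, the only nuclear member called changed, and Ndufa8, Sdha and Cox8a, members of complexes I, II and IV described below. Ndufv3 (chr17:31519965-31520134, plus strand) holds none of the 3 motifs searched. Ndufa8 (chr2:36049319-36049488, minus strand) holds 1 NRF1 match, Sdha (chr13:74350221-74350390, minus strand) 3 NRF1 matches, and Cox8a (chr19:7217597-7217766, minus strand) 1 GABP match.
Ndufv3: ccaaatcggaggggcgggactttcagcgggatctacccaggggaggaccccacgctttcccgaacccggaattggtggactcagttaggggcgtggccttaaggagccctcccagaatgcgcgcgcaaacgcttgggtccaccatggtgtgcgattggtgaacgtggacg
Ndufa8: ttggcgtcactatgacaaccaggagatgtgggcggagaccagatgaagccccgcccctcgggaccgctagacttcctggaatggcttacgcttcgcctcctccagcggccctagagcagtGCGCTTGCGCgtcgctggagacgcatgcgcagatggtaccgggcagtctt
Sdha: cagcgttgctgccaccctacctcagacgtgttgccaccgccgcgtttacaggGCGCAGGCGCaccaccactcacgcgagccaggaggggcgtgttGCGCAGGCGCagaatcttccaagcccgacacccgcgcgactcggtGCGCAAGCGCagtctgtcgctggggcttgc
Cox8a: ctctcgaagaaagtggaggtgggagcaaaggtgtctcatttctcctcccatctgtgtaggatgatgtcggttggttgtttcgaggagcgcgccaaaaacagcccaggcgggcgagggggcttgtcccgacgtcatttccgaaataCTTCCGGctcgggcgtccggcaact

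The motifs were searched on both strands from 250 bases before to 50 after the start, as GCGC, any 2 bases and GCGC for NRF1, CCGGAAG for GABP and AANATGGCG for YY1, and the 3 do not contain one another. A promoter was matched for 75 of the 92 nuclear members. NRF1 letters were in 21 of the 75 (28%), against 7% of 27025 promoters of all genes and 14.6% of the promoters of tested coding genes. GABP letters were in 19 (25.3%, against 9.93% and 19.6%), and YY1 letters in 11 (14.7%, against 2.76% and 5.76%). At least 1 motif was in 44 of the 75 promoters (58.7%, against 17.3% and 34.4%). Members with and without a match had similar fitted log2 fold changes after rFGF21, with medians of -0.20 with any motif and -0.18 without, and -0.24 and -0.18 for NRF1. A match of letters describes the window and is no evidence of a bound site.

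Levels of the 2 genomes differed widely per length of transcript. Per kilobase, and as a mean of all 8 libraries, the mitochondrial genes ranged from 764 CPM (mt-Nd3) to 11355 CPM (mt-Co1, the catalytic subunit of complex IV). The most abundant nuclear members were Atp5b, the catalytic beta subunit of ATP synthase, at 486 CPM per kb, Ndufa4 at 360 and Cox4i1 at 350, so even the least abundant mitochondrial messenger lay above the most abundant nuclear one. Within the mitochondrial set, mt-Atp6 (4676), mt-Cytb (4114), mt-Co2 (4095), mt-Atp8 (4060) and mt-Nd1 (4030) followed mt-Co1, and the complex I genes mt-Nd3, mt-Nd5 (1028), mt-Nd4l (1234) and mt-Nd6 (1453) were the lowest, all in CPM per kb. The mitochondrial rRNA genes mt-Rnr1 and mt-Rnr2 were read at only 317 and 207 CPM per kb. As steady-state rRNA far exceeds messenger in mitochondria, these levels do not stand for their RNA content in the cell.

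**Figure D1:**
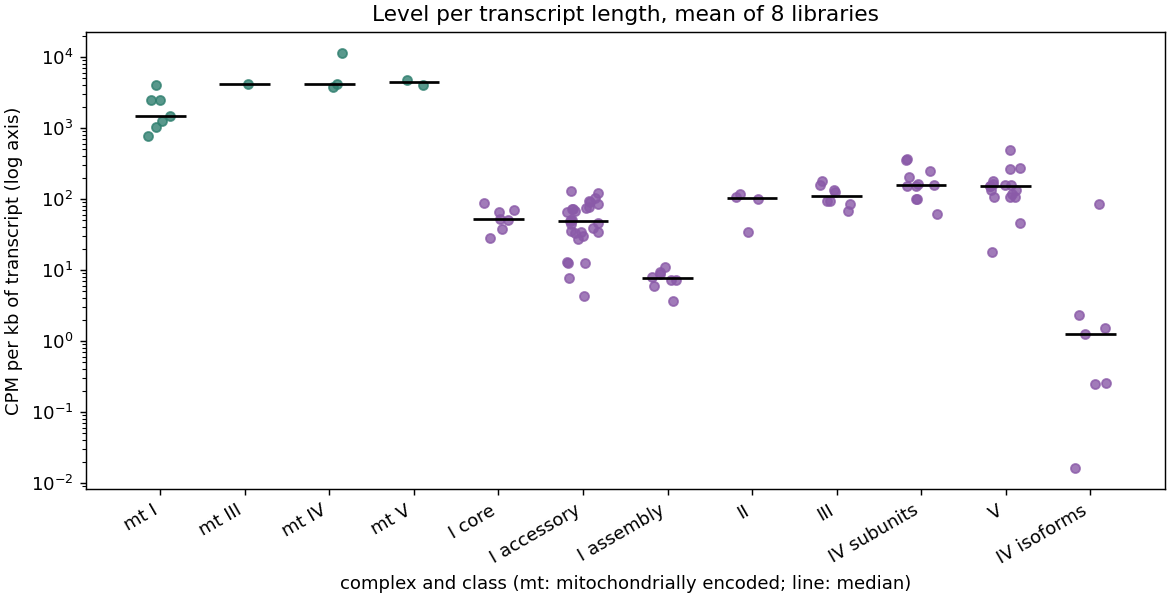
Level of each respiratory chain gene in CPM per kb of transcript (log axis, mean of 8 libraries), by complex and class. Green points are mitochondrially encoded, purple points nuclear, and the line is the median; every mitochondrially encoded gene lies above every nuclear one, and the tissue isoforms of complex IV lie lowest, apart from Cox7a2l.

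After rFGF21, the nuclear respiratory chain genes lay slightly below their PBS levels almost throughout, but single genes rarely passed the test. Of 90 nuclear members tested, 85 had a fitted log2 fold change below 0, against 49.6% of all genes tested, and their median was -0.20, against 0.00 for all genes. Only Ndufv3 was called lower (1 of 90, beside 1.67% of all genes), and 0 were called higher (1.15% of all genes). At an unadjusted edgeR p under 0.05, 32 nuclear members were lower, where 9.86% of all genes were, and 1 was higher (Cox4i2), where 8.92% of all genes were. The PBS and rFGF21 libraries did not overlap for 11 nuclear members with lower values (6.39% of all genes) and for 1 with higher values (again Cox4i2; 5.9%). Cox4i2 passed the filter on low counts only through its rFGF21 libraries, so these counts of 1 are no result. The median stayed below 0 in each fit with 1 library left out, from -0.13 without PBS 1 to -0.27 without PBS 4. The count at unadjusted p depended on single libraries: it was 14 without PBS 1 and 12 without PBS 5, rFGF21 2 or rFGF21 5. It was 25 without rFGF21 1 or rFGF21 3, 33 without PBS 2, and 53 without PBS 4, where 9.73% of all genes were lower. For the other fits that share is not given. Calls over all genes at an adjusted p under 0.05 were also fewer with 1 library left out, 131 to 486 against 516.

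The 13 mitochondrially encoded genes all had a fitted log2 fold change below 0 with all 8 libraries. They ran from -0.68 (mt-Nd4l) to -0.33 (mt-Nd6) with a median of -0.49, and edgeR called 0 (smallest adjusted p 0.106 for mt-Nd3). At an unadjusted edgeR p under 0.05, 7 of 13 were lower, where 9.86% of all genes were. Without PBS 4 it was 3 of 13, where 9.73% of all genes were. The count also depended on other libraries: it was 11 without PBS 1, 7 without PBS 2 and 9 without PBS 5. Without rFGF21 1, 2, 3 and 5 it was 3, 1, 4 and 2. For these other fits the share of all genes is not given. DESeq2 called mt-Nd3 lower (1 of 13, beside 8.37% of all genes called in either direction in that test). Without PBS 4 the median was -0.18, the range was -0.33 (mt-Nd3) to 0.10 (mt-Nd6), and 11 of 13 were below 0, beside 48.5% of all genes. The nuclear median moved the other way without that library, to -0.27, with 89 of 91 below 0 and 0 called (2.6% of all genes, and 1.54% lower). With all libraries the mitochondrial genes thus had the more negative median, and without PBS 4 the nuclear genes had it.

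**Figure D2:**
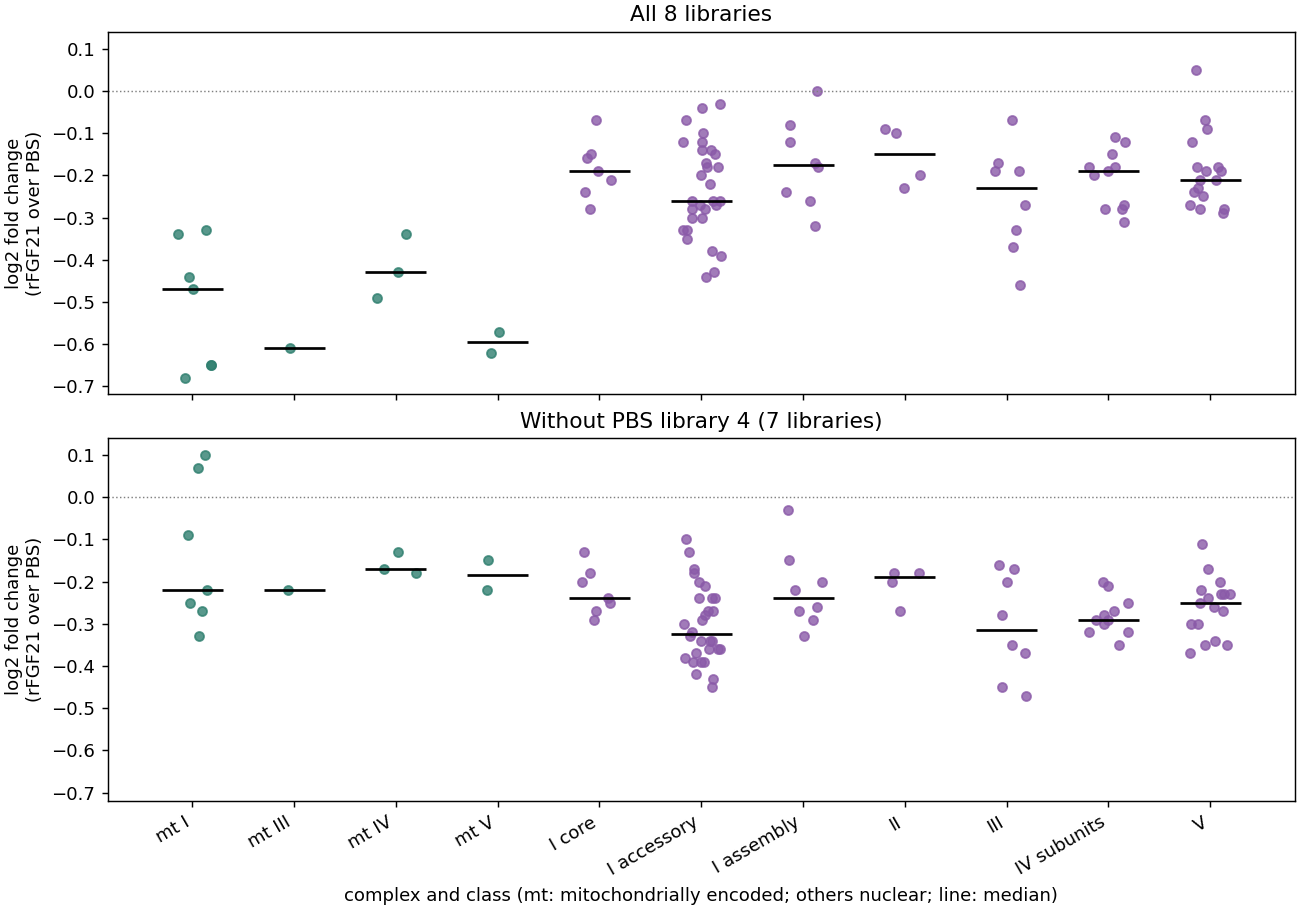
Fitted log2 fold change (rFGF21 over PBS) of each tested gene, by complex and class, with all 8 libraries (top) and without PBS library 4 (bottom); green is mitochondrially encoded, purple nuclear, the line is the median, and tissue isoforms of complex IV are not drawn. The mitochondrial points move up towards 0 when that library is left out, mt-Nd5 and mt-Nd6 past it, while the nuclear medians move slightly down.

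The share of reads shows where PBS 4 stood. The 13 mitochondrial protein genes took 3.94, 4.48, 7.87 and 3.99% of reads in PBS 1, 2, 4 and 5, and 4.04, 3.21, 4.02 and 4.17% in rFGF21 1, 2, 3 and 5. PBS 4 was the highest by far, and rFGF21 2 was the lowest. The group means were 5.07% ± 1.88 in PBS and 3.86% ± 0.437 in rFGF21 (SD, n = 4 each), and the PBS mean without PBS 4 was 4.13% ± 0.296 (n = 3). The nuclear members took 0.969, 0.823, 0.715 and 0.884% of reads in PBS and 0.813, 0.762, 0.794 and 0.745% in rFGF21. PBS 4 had the lowest nuclear share of all 8 libraries, also when reads of mitochondrial genes were left out of the total (0.777%, against 0.863 to 1.01% in the other PBS libraries and 0.778 to 0.848% in rFGF21).

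Per complex, the ratio of mitochondrial to nuclear reads put the 2 genomes side by side within each library. For complex I the log2 ratio was 2.14, 2.72, 3.84 and 2.37 in PBS and 2.55, 2.27, 2.58 and 2.77 in rFGF21. PBS 4 was the highest, and the other PBS libraries overlapped the rFGF21 ones. The group difference, rFGF21 minus PBS, was -0.23 with PBS 4 and 0.13 without it. For complex III the ratios were 1.94, 2.42, 3.49 and 2.13 against 2.27, 1.94, 2.22 and 2.36, a difference of -0.30 that became 0.03 without PBS 4. For complex IV they were 3.61, 4.04, 5.03 and 3.72 against 3.93, 3.70, 3.92 and 4.09, a difference of -0.19 that became 0.12. For complex V they were -0.06, 0.27, 1.34 and 0.05 against 0.06, -0.08, 0.18 and 0.26, a difference of -0.29 that became 0.02. In all 4 complexes the sign of the difference rested on 1 library, and in all 4 the groups overlapped. The mitochondrial sums by themselves did not overlap in complex IV (20794, 17456, 21004 and 20129 CPM in rFGF21, against 21268 CPM or more in PBS) and complex V (2840 to 3493 CPM, against 3618 CPM or more), while those of complexes I and III did.

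**Figure D3:**
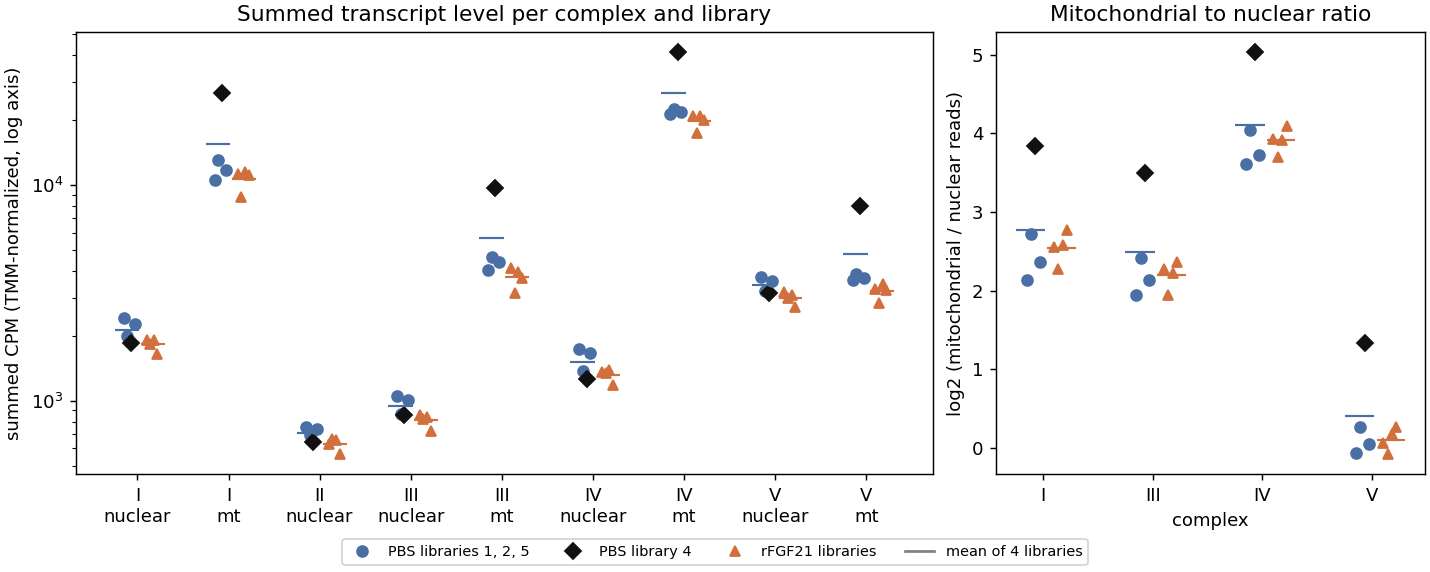
Left: summed CPM of the nuclear and the mitochondrially encoded (mt) genes of each complex in each library (log axis); right: log2 ratio of mitochondrial to nuclear reads per complex. Circles are PBS libraries 1, 2 and 5, the diamond is PBS library 4, triangles are rFGF21 libraries, and lines are means of 4; the diamond is the highest point of every mitochondrial sum and of every ratio, and lies low among the PBS points in the nuclear sums.

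The excess in PBS 4 was unequal along the mitochondrial genome. Relative to the mean of PBS 1, 2 and 5, mt-Nd5 was 2.7-fold, mt-Atp8 2.53-fold, mt-Nd4l 2.51-fold, mt-Nd6 2.38-fold, mt-Nd4 2.26-fold, mt-Nd2 and mt-Cytb 2.21-fold, mt-Nd1 2.17-fold, mt-Atp6 2.06-fold, mt-Co2 1.98-fold and mt-Co1 1.94-fold in that library. mt-Co3 was 1.48-fold, and mt-Nd3, its neighbour, 1.0-fold: 298 CPM in PBS 4 against 297 ± 18 CPM in the others (SD, n = 3). The rRNA genes were 1.44-fold (mt-Rnr1) and 1.22-fold (mt-Rnr2). mt-Nd6, the only one of the 13 on the minus strand, was raised like the plus-strand genes. Whether strand was used in counting is not given, so its reads may come from either strand. Among the other 7 libraries the highest exceeded the lowest by 1.28-fold (mt-Co3) to 1.87-fold (mt-Nd4l).

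**Figure D4:**
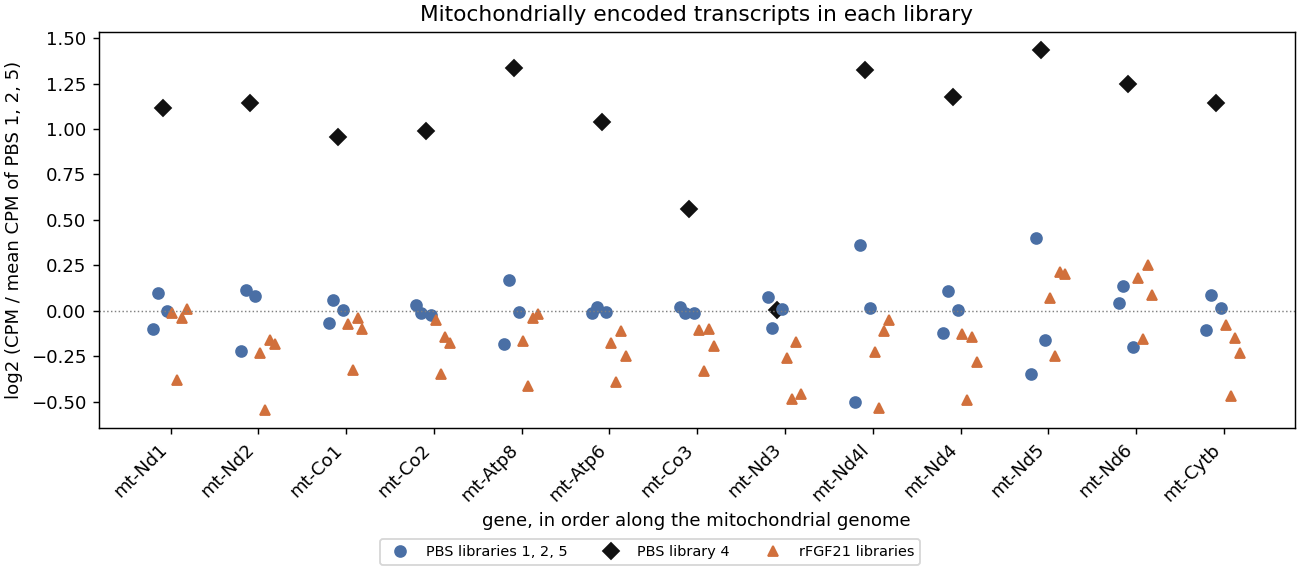
Level of each mitochondrially encoded messenger in each library, as log2 of its CPM over the mean CPM of PBS libraries 1, 2 and 5, in the order of the genes along the mitochondrial genome. The diamonds (PBS library 4) stand about 1 unit or more above the dotted line, the mean of PBS 1, 2 and 5, for 11 genes, lower for mt-Co3 and level with the other PBS libraries for mt-Nd3; triangles are rFGF21 libraries.

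Among the mitochondrial complex I genes, which encode the membrane arm of the proton pump, mt-Nd3 had the smallest spread. It was read at 313, 278, 298 and 299 CPM in PBS and 248, 212, 263 and 216 CPM in rFGF21. All 4 rFGF21 libraries lay below all 4 PBS libraries, and the fitted log2 fold change was -0.34 (SE 0.10, edgeR adjusted p = 0.106), with -0.33 without PBS 4. mt-Nd4 was read at 2885, 3393, 7104 and 3158 CPM in PBS and 2878, 2240, 2846 and 2591 CPM in rFGF21. Its groups also did not overlap, by a narrow margin, and its log2 fold change went from -0.65 (SE 0.26, adjusted p = 0.21) to -0.25 without PBS 4. mt-Nd5, with 1189, 2001, 4089 and 1352 CPM in PBS and 1589, 1275, 1757 and 1741 CPM in rFGF21, went from -0.44 to 0.07, and mt-Nd6 from -0.33 to 0.10. mt-Nd1 went from -0.47 to -0.09, mt-Nd2 from -0.65 to -0.27 and mt-Nd4l from -0.68 to -0.22.

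mt-Cytb, the cytochrome b of complex III, was read at 4047, 4637, 9647 and 4400 CPM in PBS and 4137, 3149, 3929 and 3707 CPM in rFGF21. The groups overlapped, and its log2 fold change was -0.61 (SE 0.25, edgeR adjusted p = 0.226), or -0.22 without PBS 4. mt-Co3, a core subunit of complex IV, was read at 2989, 2921, 4345 and 2920 CPM in PBS and 2731, 2342, 2743 and 2570 CPM in rFGF21. Its groups did not overlap with or without PBS 4, and its log2 fold change was -0.34 (SE 0.14, adjusted p = 0.227), or -0.18 without it. mt-Co2, which accepts electrons from cytochrome c, did not overlap either (log2 fold change -0.49, or -0.17), and mt-Co1 overlapped (-0.43, or -0.13). Of the ATP synthase genes, mt-Atp6, whose product forms part of the proton channel, was read at 2979, 3055, 6183 and 2988 CPM in PBS and 2656, 2295, 2787 and 2534 CPM in rFGF21. That is a log2 fold change of -0.57 (SE 0.23, adjusted p = 0.212), or -0.22 without PBS 4, with no overlap in either case. mt-Atp8 overlapped (-0.62, or -0.15). In all, 5 of the 13 did not overlap between the groups (mt-Nd3, mt-Nd4, mt-Co2, mt-Co3 and mt-Atp6), beside 6.39% of all genes.

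Nuclear complex I has 7 core genes, 30 accessory genes and 8 assembly factors in this set, and all 45 were tested. Their medians were -0.19, -0.26 and -0.17 on the log2 scale, 44 of 45 were below 0, and Ndufv3 alone was called. Ndufv3 is an accessory subunit of the NADH-oxidizing module. It was read at 70.1, 55.7, 58.5 and 58.0 CPM in PBS and 49.0, 43.2, 46.2 and 40.8 CPM in rFGF21. Every rFGF21 library lay below every PBS library, and it fell by 0.43 on the log2 scale (SE 0.10, edgeR adjusted p = 0.0446). The call lies close to the threshold and was lost when any 1 of the 8 libraries was left out, with adjusted p from 0.0545 (without PBS 4) to 0.13 (without rFGF21 5) and log2 fold changes from -0.48 to -0.35. Ndufv3 (ENSMUSG00000024038) lies at chr17:31520115-31531331.

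Other accessory subunits came near the threshold. Ndufa8, of the intermembrane-space side, was read at 69.2, 61.5, 60.5 and 64.2 CPM in PBS and 53.1, 49.9, 53.5 and 51.1 CPM in rFGF21, a log2 fold change of -0.30 (SE 0.08, edgeR adjusted p = 0.0669) without overlap. Ndufb10, of the membrane arm, was read at 64.3, 49.9, 69.6 and 59.5 CPM in PBS and 51.5, 40.1, 46.0 and 42.3 CPM in rFGF21, a log2 fold change of -0.44 (SE 0.12, adjusted p = 0.0797) with overlap. It was called without PBS 2 (adjusted p = 0.0495), and DESeq2 called Ndufa8, Ndufb10, Ndufv3 and Uqcrb of complex III. These are 4 of the 92 nuclear members in that test, beside 8.37% of all 16864 genes with an adjusted p in it. Ndufa6, the accessory gene with the highest level per length (128 CPM per kb), was read at 95.7, 69.6, 79.4 and 94.3 CPM in PBS and 71.6, 64.9, 69.6 and 59.7 CPM in rFGF21 (-0.35, SE 0.11, edgeR adjusted p = 0.13). Ndufa2, which takes part in the matrix arm, shows how PBS 4 widened the spread: it was read at 63.7, 60.9, 28.6 and 57.0 CPM in PBS and 47.2, 45.4, 52.9 and 34.9 CPM in rFGF21. Its log2 fold change was -0.22 (SE 0.22) with PBS 4, the lowest of the 8, and -0.42 (SE 0.13, adjusted p = 0.121) without it. Of the 30 accessory genes, 6 were lower without overlap (6.39% of all genes): Ndufa8, Ndufa10, Ndufb4, Ndufb5, Ndufs5 and Ndufv3. Most reads under the names of Ndufs5 and its pseudogene are counted on the latter.

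Of the core genes, which hold the redox centres, Ndufs1 carried the smallest p. It was read at 82.3, 81.5, 81.6 and 81.8 CPM in PBS and 68.6, 71.6, 77.9 and 65.3 CPM in rFGF21. The PBS libraries lay close together, the groups did not overlap, and the log2 fold change was -0.21 (SE 0.08, edgeR adjusted p = 0.186). The assembly factors were the least abundant class of complex I, between 3.67 (Ndufaf5) and 10.9 CPM per kb (Ndufaf8). At an unadjusted edgeR p under 0.05, 0 of 8 were lower with all libraries, where 9.86% of all genes were. Without PBS 4, 2 of 8 were (Ndufaf1 and Ndufaf8), where 9.73% of all genes were. Ndufaf1, which helps build the membrane arm, was read at 14.0, 16.3, 11.9 and 14.0 CPM in PBS and 11.2, 11.1, 11.9 and 12.9 CPM in rFGF21 (log2 fold change -0.26, adjusted p = 0.269). Ndufaf8 had -0.18 (adjusted p = 0.585).

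Complex II, the succinate dehydrogenase shared with the tricarboxylic acid cycle, has 4 nuclear genes, and 0 of 4 were called by edgeR or DESeq2. At an unadjusted edgeR p under 0.05, 1 was lower (9.86% of all genes), and 2 without PBS 4 (9.73%). Sdha, the flavoprotein that oxidizes succinate, was read at 310, 315, 309 and 311 CPM in PBS and 264, 295, 278 and 246 CPM in rFGF21. The groups did not overlap, and the log2 fold change was -0.20 (SE 0.09, edgeR adjusted p = 0.252). PBS 4 was level with the other PBS libraries for this gene. Sdhb, the iron-sulfur subunit, was read at 159, 129, 133 and 158 CPM against 124, 132, 130 and 106 CPM (-0.23, adjusted p = 0.283). The membrane anchors Sdhc and Sdhd overlapped more widely, with log2 fold changes of -0.10 and -0.09 (adjusted p = 0.688 and 0.758), and PBS 4 was the lowest library for both, at 93.9 and 106 CPM.

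All 8 nuclear genes of complex III had log2 fold changes below 0, with a median of -0.23, and their summed CPM did not overlap between the groups: 1056, 867, 858 and 1002 in PBS and 858, 821, 841 and 724 in rFGF21. The margin is small, since PBS 4 and rFGF21 1 both round to 858. Uqcrb, a small subunit near the quinone site, was read at 84.3, 66.4, 99.2 and 78.4 CPM in PBS and 58.7, 54.0, 68.4 and 57.7 CPM in rFGF21, a log2 fold change of -0.46 (SE 0.12, edgeR adjusted p = 0.0817). PBS 4 was here the highest library, and the gene was called without PBS 2 (-0.55, adjusted p = 0.0495). Uqcr10 was read at 108, 75.4, 74.2 and 97.7 CPM in PBS and 80.9, 66.4, 71.2 and 55.8 CPM in rFGF21 (-0.37, adjusted p = 0.204). The Rieske iron-sulfur protein Uqcrfs1 had -0.07 (adjusted p = 0.836).

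The 11 common subunits of complex IV had a median of -0.19, all below 0, with 0 called by edgeR or DESeq2. At an unadjusted edgeR p under 0.05, 4 were lower (9.86% of all genes), and 8 without PBS 4 (9.73%). Cox8a was read at 103, 86.2, 93.0 and 106 CPM in PBS and 86.5, 77.1, 84.6 and 73.6 CPM in rFGF21, a log2 fold change of -0.27 (SE 0.10, edgeR adjusted p = 0.155). Cox6a1 was read at 160, 132, 179 and 148 CPM in PBS and 137, 124, 124 and 123 CPM in rFGF21 (-0.28, adjusted p = 0.174), with PBS 4 the highest library. Cox4i1, the regulatory subunit that binds nucleotides, was read at 337, 263, 232 and 313 CPM against 262, 246, 253 and 236 CPM (-0.20, adjusted p = 0.414), with PBS 4 the lowest. Ndufa4, named after complex I but a subunit of complex IV, was read at 271, 204, 200 and 260 CPM in PBS and 211, 209, 221 and 183 CPM in rFGF21 (-0.18, adjusted p = 0.472).

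The isoforms known from other tissues were scarce in these livers. Cox8b, the heart and muscle form, had 3 reads in all, in PBS 2, and Cox6a2, also of heart and muscle, had 4 to 37 reads per library, and neither passed the filter on low counts. Cox7a1, another muscle form, stood at 0.71, 0.598, 0.445 and 0.699 CPM in PBS and 0.506, 0.395, 0.37 and 0.185 CPM in rFGF21 (log2 fold change -0.75, SE 0.40, edgeR adjusted p = 0.344), against 68.2 CPM on average in PBS for its common counterpart Cox7a2. Cox6b2, the testis form, averaged 0.783 ± 0.309 CPM in PBS and 1.03 ± 0.353 in rFGF21 (SD, n = 4 each), against 99.2 ± 21.8 and 89.5 ± 6.49 for Cox6b1. Cox4i2, a lung form induced by low oxygen, had 7, 0, 10 and 0 reads in PBS and 22, 27, 15 and 26 in rFGF21. Its rFGF21 libraries all lay above the PBS ones, on a few reads per library, and since it passed the filter on low counts only through them, no test is given. Ndufa4l2, also induced by low oxygen, was at 2.07 ± 0.591 CPM in PBS and 2.22 ± 0.304 in rFGF21. Cox7a2l, which serves in supercomplexes of complexes III and IV, was abundant (94.6 ± 23.3 and 91.2 ± 8.3 CPM) and had a log2 fold change of -0.05.

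Complex V had 16 of 17 nuclear genes below 0, a median of -0.21 and 0 called by edgeR or DESeq2. At an unadjusted edgeR p under 0.05, 8 were lower (9.86% of all genes), and 11 without PBS 4 (9.73%). Atp5b was read at 1070, 913, 962 and 1024 CPM in PBS and 950, 878, 863 and 783 CPM in rFGF21, a log2 fold change of -0.19 (SE 0.10, edgeR adjusted p = 0.335). Atp5d, the delta subunit of the central stalk, was read at 198, 179, 176 and 176 CPM in PBS and 163, 156, 151 and 129 CPM in rFGF21, without overlap (-0.28, SE 0.10, adjusted p = 0.154). Atp5a1 and Atp5c1, the alpha and gamma subunits, also did not overlap, with log2 fold changes of -0.21 and -0.23. These are 3 of 17 genes lower without overlap, beside 6.39% of all genes. The gene above 0 was Atp5g2, 1 of 3 genes for the membrane ring, at 0.05 (adjusted p = 0.91), and without PBS 4 it was at -0.11. Atp5e, the epsilon subunit, had the largest deficit of PBS 4 among the nuclear subunits, with 90.6, 73, 34.2 and 81.1 CPM in PBS and 63.7, 70.9, 70.2 and 51.2 CPM in rFGF21 (-0.12 with PBS 4, -0.35 without).

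The nuclear deficit in PBS 4 was as unequal as its mitochondrial excess. Against the mean of the other PBS libraries, Atp5e stood at 0.42-fold, Ndufa2 at 0.473-fold, Cox7a2 at 0.513-fold and Ndufb6 at 0.518-fold, while Ndufa12 stood at 1.4-fold (most reads under its name and that of its pseudogene are counted on the latter), Uqcrb at 1.3-fold, Cox6a1 at 1.22-fold, Ndufb10 at 1.2-fold and Ndufa10 at 1.17-fold. Most nuclear members have short transcripts, so their deviation was set beside that of all coding genes of like length. For transcripts under 700 bases, the median log2 deviation of PBS 4 from the other PBS libraries was -0.32 over 31 members and -0.29 over 255 genes. From 700 to 1000 bases it was -0.38 over 19 members and -0.23 over 516 genes. From 1000 to 2000 bases it was -0.28 over 27 members and -0.05 over 2730 genes. For 2000 bases and over it was -0.02 over 9 members and 0.03 over 9289 genes, and the bins of 19 and 9 members are thin. Within the bin of 9 it ran from -0.722 (Ndufb2, 4371 bases) to 0.235 (Ndufaf4, 3632 bases). Bins depend on which annotated transcript is taken for a gene. Other libraries also deviated with length from the rest of their group: under 700 bases, PBS 1 by 0.30 over the members and 0.25 over all coding genes, and rFGF21 5 by -0.24 and -0.17. The fitted log2 fold changes after rFGF21 had a shallower course over all coding genes, with medians of -0.11, -0.08, -0.05 and 0.03 from the shortest to the longest bin, or -0.15, -0.12, -0.06 and 0.05 without PBS 4. The members' medians were -0.20, -0.20, -0.19 and -0.21 with all libraries. Without PBS 4 they were -0.30, -0.29, -0.24 and -0.22, lowest for the short transcripts. In both cases they lay below those of all genes in each bin. The part of transcript length in the results was not tested.

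**Figure D5:**
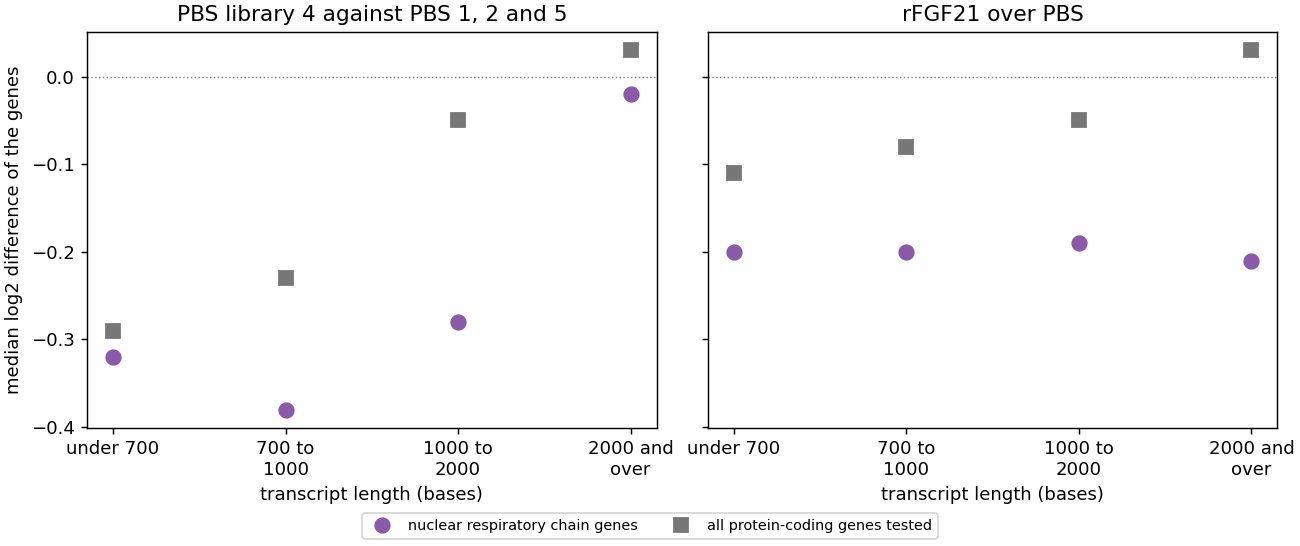
Median log2 difference of nuclear respiratory chain genes (circles) and of all tested coding genes with a mean of at least 1 CPM (squares), in 4 bins of transcript length: PBS library 4 against the other PBS libraries (left) and the fitted rFGF21 over PBS difference (right). At left both sets fall away from 0 towards short transcripts; at right, with all 8 libraries, the members stand near -0.20 in every bin, while without PBS library 4 (not drawn) they were at -0.30, -0.29, -0.24 and -0.22.

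Several members have a gene named as a pseudogene of theirs, and reads may have been split between the pair. Their sequences were not compared. Ndufs5-ps, on chromosome 16, averaged 31.8 CPM and Ndufs5 itself 5.26, so 85.8% of their joint reads were counted on the copy. For Ndufa12-ps the share was 64.3% (24.9 CPM, against 13.9 for Ndufa12), for Cox5b-ps 14.5%, and no more than 4.07% for any other copy with a -ps name. The share was not computed for the copies Ndufb4c, Ndufs6b and Cox6c2, which lack that ending. Ndufb4c averaged 4.86 CPM in PBS and 3.95 CPM in rFGF21, beside 37 and 30.7 CPM for Ndufb4. Of the 15 copies, 11 were tested and 0 called (2 lower at an unadjusted edgeR p under 0.05, where 9.86% of all genes were). With the reads of copy and parent added, Ndufs5 had a log2 fold change of -0.40 (SE 0.11, edgeR adjusted p = 0.0887) and Ndufa12 -0.38 (SE 0.15, adjusted p = 0.193), close to -0.38 and -0.39 for the parents alone.

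Genes that serve the chain were read from lists that hold none of the members. Among electron carriers and coenzyme Q synthesis, 3 of 22 tested genes were called lower (beside 1.67% of all genes), 0 higher, and the median was -0.24. Coq10b, a coenzyme Q binding protein, was read at 62.1, 45.8, 56.6 and 83.7 CPM in PBS and 34.3, 34.5, 21.6 and 16.0 CPM in rFGF21, without overlap. It fell by 1.22 on the log2 scale (SE 0.25, edgeR adjusted p = 0.0338), more than any member. Its relative Coq10a fell by 0.63 (SE 0.15, adjusted p = 0.0492) and Coq9, a lipid-binding protein of coenzyme Q synthesis, by 0.34 (SE 0.08, adjusted p = 0.0497). These calls are close to the threshold. With 1 library left out at a time, Coq10b was called in 3 of 8 fits (lost without PBS 1, PBS 5, rFGF21 1, rFGF21 3 or rFGF21 5, highest adjusted p 0.0843), Coq10a in 1 (that without PBS 4; highest 0.117) and Coq9 in 0 (highest 0.139). Cycs, cytochrome c, had -0.38 (adjusted p = 0.148) with PBS 4 and -0.23 without.

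The other lists had 0 calls by edgeR in either direction. Their median log2 fold changes were -0.10 over 43 assembly factors outside the name rule, -0.07 over 19 genes of mitochondrial DNA replication and transcription, -0.06 over 20 genes of mitochondrial RNA processing, -0.10 over 21 regulators of mitochondrial biogenesis, -0.15 and -0.12 over 49 large and 30 small mitochondrial ribosomal proteins, and -0.17 over 18 tricarboxylic acid cycle genes. At an unadjusted edgeR p under 0.05, in either direction, these lists held 7, 0, 3, 7, 12, 7 and 3 genes in that order, beside 18.8% of all genes tested. DESeq2 called 1, 0, 0, 1, 3, 0 and 0 (Bcs1l, Prkaa2, Mrpl15, Mrpl18 and Mrpl55), beside the 8.37% of all genes. Ppargc1a, the coactivator known for driving mitochondrial biogenesis, was read at 13.6, 19.7, 31.3 and 31.2 CPM in PBS and 11.5, 20.6, 14.0 and 9.39 CPM in rFGF21 (log2 fold change -0.79, SE 0.29, adjusted p = 0.176), with overlap. Tfam, the packaging and transcription factor of mitochondrial DNA, had -0.12 (adjusted p = 0.589), and Nrf1 0.22 (adjusted p = 0.373). In PBS 4, the summed CPM of the DNA replication and transcription list (457, against 435 to 457 over the PBS libraries) and of the RNA processing list (686, against 600 to 686) was the highest of the PBS libraries, while that of the electron carriers (1297, against 1297 to 1508) and of the assembly factors (798, against 798 to 922) was the lowest.

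Nuclear-retained RNAs, listed as a sign of RNA quality, went in both directions. Of the 7, 3 had a fitted log2 fold change below 0 (49.6% of all genes), and the median was 0.49. Of 7, 2 were called higher after rFGF21, Malat1 (173 ± 22.2 CPM in PBS and 268 ± 15.1 in rFGF21, a log2 difference of 0.63, edgeR adjusted p = 0.016) and Neat1 (894 ± 120 and 1497 ± 237 CPM, 0.74, adjusted p = 0.0234; SD, n = 4 each). The list's summed CPM was 982 to 1181 in PBS, 1027 in PBS 4 among them, and 1523 to 2118 in rFGF21. Most of that sum is Neat1 and Malat1, so it does not describe the other genes of the list. Malat1 lost the call without rFGF21 5 (adjusted p = 0.0512), and Neat1 without PBS 1, PBS 5, rFGF21 2 or rFGF21 5 (highest 0.0624). Of the 13 marker lists, 0 had a gene called by edgeR, but 5 of 6 cholangiocyte and 3 of 5 erythroid markers passed an unadjusted p of 0.05, beside 18.8% of all genes in either direction. DESeq2, which called 8.37% of all genes, called Krt19, Sox9, Hba-a1, Hbb-bs and the stellate marker Col1a1 among the markers. Their summed CPM overlapped between the groups in all but the erythroid list (259 to 369 in PBS, 375 to 665 in rFGF21): 63445 to 81895 against 59040 to 74387 for hepatocytes, 171 to 265 against 237 to 368 for cholangiocytes, 392 to 686 against 165 to 550 for Kupffer cells, 93.1 to 196 against 93.1 to 168 for endothelium, 373 to 464 against 402 to 508 for stellate cells, 10.8 to 18.4 against 13 to 26.2 for neutrophils and 7.25 to 8.21 against 5.97 to 8.82 for B and T cells. PBS 4 had the highest hepatocyte sum and the lowest cholangiocyte, stellate, neutrophil and erythroid sums of the PBS libraries. Skeletal muscle (0.378 to 1.01 against 0.315 to 0.555, with Myh4 at 0 reads), heart (1.06 to 2.03 against 1.0 to 1.41), brown fat (6.11 to 32.2 against 4.16 to 8.85) and retina markers (7.42 to 12.5 against 8.17 to 11.2) were low, and the sex-linked genes were at 120 to 139 against 127 to 150. The part of these RNAs and cell types in the respiratory chain results was not tested.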

How the data were processed

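Per the file headers, the deposited table gives whole-number read counts per gene for 30266 genes, of whose identifiers 30177 were in GENCODE M21 (GRCm38) and 27322 (90.5%) had identical coordinates there, 106 of the 120 members among them. Coordinates are printed as GRCm38, although the submitters' processing notes name Bowtie 0.12.2 and mm8. Counting tool, strand setting and multimapping rule: not given in the sources used here. The 8 count columns whose library also has an FPKM column were used, assigned to groups only, since column and label numbers differ. Columns of samples not used numbered 10, of which 2 hold counts and 8 hold FPKM.

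The members and lists were chosen with earlier results of these data known. The test was edgeR 4.0.16 in R 4.3.3 (filterByExpr, TMM, glmQLFit and glmQLFTest, two-sided, no covariates) over 18315 genes, adjusted by the Benjamini-Hochberg method at 0.05. SE follow from the F statistic. Sums, shares and medians have no test. Lengths are those of the principal transcript in GENCODE M21, taken by APPRIS rank, then transcript support level, then the longest, which may not be the form expressed in liver. Levels between genes are CPM per kb. The edgeR step was tested on simulated counts. Alternatives used DESeq2 1.42.0, other scalings and filters, and each library left out.

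Named are the 13 mitochondrial genes, the Sdh genes, called members, the smallest p and highest CPM per kb (in place of a planned FPKM) in each nuclear class, tissue isoforms with counterparts, and called list genes. A gene that the rule names in 1 class is not reported here. Members named for a deviation in PBS 4, for lack of overlap or for a role were added after their values were seen, as were Cycs, Tfam, Nrf1 and Ppargc1a. Shared column numbers (1, 2 and 5) did not pair the libraries: the deviations of same-numbered libraries correlated at 0.065, -0.036 and -0.099.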

Additional observations from a re-analysis of the deposited data

Results flagged for a closer look

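A library was singled out where its gap to the nearest other library of its group of 4, divided by the range of the group, exceeded the 95% critical value of Dixon's ratio for 4 values. Chance singles out about 1 in 20 groups, and here 24 of 124 groups (19.4%) were, 16 of them with PBS 4 as the highest library. That 1 PBS library has a high mitochondrial share was known beforehand, and the groups include the mitochondrial genes, their shares and their sums. The excess over 1 in 20 is therefore a description and no test. For PBS 4 the ratio was 0.976 for mt-Atp6, 0.963 for mt-Co2, 0.952 for mt-Co3, 0.911 for mt-Co1, 0.895 for mt-Cytb, 0.888 for mt-Nd1, 0.88 for mt-Nd4, 0.853 for mt-Atp8, 0.848 for mt-Nd6 and 0.837 for mt-Nd2. It was 0.863 for the share of reads of the 13 protein genes, 0.865 for that of all mitochondrial genes, and 0.843, 0.895, 0.936 and 0.943 for the mitochondrial sums of complexes I, III, IV and V. These values share 1 library and largely the same reads. rFGF21 2 was the lowest library for mt-Nd1 (0.86), the 13-gene share (0.844), the mitochondrial tRNA share (0.885) and the mitochondrial complex I sum (0.887).

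Among nuclear members the library was a different one each time. Atp5d was highest in PBS 1 (0.872), Cox6a1 highest in rFGF21 1 (0.947), Ndufaf8 highest in rFGF21 2 (0.948) and Cox7a2l lowest in rFGF21 5 (0.925).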

How the results depend on the processing

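Over 38 named genes and all alternatives, 614 of 643 values kept direction and side of the threshold, 12 lost a call (all Ndufv3), 3 gained one and 14 changed sign. With PBS 4 left out, the mitochondrial to nuclear differences changed sign: with 1 library left out at a time they ran from -0.44 to 0.13 in complex I, -0.48 to 0.03 in III, -0.35 to 0.12 in IV and -0.45 to 0.02 in V, the upper value being that without PBS 4. In the same way Ndufa4l2 ran from -0.05 to 0.23, mt-Nd5 from -0.64 to 0.07 and mt-Nd6 from -0.48 to 0.10. Cox7a2 ran from -0.30 to 0.02 (without PBS 1 or PBS 5), and Cox7a2l from -0.21 to 0.06 (without PBS 1; 0.01 without PBS 5 or rFGF21 5). Nuclear members called lower numbered 0 with upper-quartile scaling and with no low-count filter, 4 with DESeq2 and 0 to 2 with 1 library left out, and mitochondrial ones 1 with DESeq2. Over all genes, calls numbered 516 in edgeR, 1411 in DESeq2, 198 with no filter and 131 to 486 with 1 library left out. The nuclear median was below 0 in every alternative run, from -0.30 to -0.13, and the mitochondrial one from -0.64 to -0.18. The cause of these dependences was not tested. Tests and sums on FPKM were not run. Count depth limits the isoforms of complex IV, with 0 to 37 reads a library in Cox8b, Cox6a2 and Cox4i2.

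The column numbers do not pair the libraries. With them as a replicate block (6 libraries, without PBS 4 and rFGF21 3), 0 nuclear members were called, the medians were -0.29 (nuclear) and -0.21 (mitochondrial), and Ndufv3 had -0.46 (edgeR adjusted p = 0.125). Ndufa4l2 had -0.10, and mt-Nd5 and mt-Nd6 0.05. Over all genes the block gave 12 calls. The same 6 libraries without the block, added after seeing the data, gave 281 calls and 0 nuclear members, with Ndufa4l2 at -0.11, mt-Nd5 at 0.02 and mt-Nd6 at 0.05. Adding the reads of nuclear copies with -ps names to their parents, also added after seeing the data, left the nuclear median at -0.20 and Ndufv3 called.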
